A study of Mus musculus with 12 samples.

Results

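The mitotic kinesins, centromere proteins and spindle checkpoint genes were examined in mouse pre-B cells carrying the BCR-ABL1 oncogene as a set of 69 genes among the 12151 genes measured. Members were taken by symbol, as every kinesin of the Kif series and every gene with a Cenp symbol together with named kinases, cyclins, checkpoint, kinetochore and spindle genes. Of the 69 genes, 53 were counted as machinery of mitosis or of the centromere, and 16 are kinesins outside the list of mitotic kinesins used here. RNA was sequenced in 12 libraries that form 4 groups of 3. The cells came from bone marrow of Ctnnb1 Ex3fl/+ mice aged 6 to 12 weeks, so that all groups shared a floxed exon 3 on 1 copy of the β-catenin gene. In the WT groups the cells had received Cas9 ribonucleoprotein with the non-targeting guide sgNTC, and in the KO groups sgIkzf1 Ikzf3, which is aimed at the transcription factor genes Ikzf1 and Ikzf3. Lines grown from single cells were then transduced with an ERT2 or a Cre-ERT2 vector that carries GFP, sorted as GFP+ cells and given 4-OHT, the ligand that activates ERT2 fusions. The protocol places all 12 libraries at day 1 after 4-OHT. Cre deletes exon 3, which encodes the residues that mark β-catenin for degradation. After their labels, the 4 groups are called ERT2 WT and ERT2 KO (the controls) and Cre-ERT2 WT and Cre-ERT2 KO. The labels tie no clone to a library, so P values measure the spread between these libraries, which may be technical, and the genotype cannot be told apart from the origin of the clones. Because the ERT2 controls hold no Cre, the presence of active Cre and the stabilization of β-catenin cannot be told apart either.

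Entry into mitosis is driven by Cdk1 with its cyclins, and Plk1 and the Aurora kinases act with it on centrosomes, chromosomes and kinetochores. The kinetochore is assembled on nucleosomes that carry the histone variant Cenpa, through a constitutive network of Cenp proteins and an outer complex (Ndc80, Nuf2, Spc24 and Spc25) that binds microtubules. Checkpoint proteins of the Mad and Bub families and the kinase Ttk hold back Cdc20, the activator of the anaphase-promoting complex, until every kinetochore is attached, after which separase (Espl1) opens cohesin. Kinesins are motors that walk along microtubules or take them apart, and the mitotic ones build the spindle, move chromosomes and support cytokinesis. Transcription of many of these genes rises late in the cell cycle, under the DREAM and B-Myb-MuvB complexes, which bind the cell cycle genes homology region (CHR), and under NF-Y, which binds CCAAT boxes.

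Among the edited genes, Ikzf1 mRNA was not lower in the libraries labelled KO, with a log2 level of 13.74 ± 0.0116 in ERT2 WT, 13.68 ± 0.0208 in Cre-ERT2 WT, 14.75 ± 0.00667 in ERT2 KO and 14.58 ± 0.0234 in Cre-ERT2 KO (SD, n = 3). Ikzf3 was lower in the libraries labelled KO, at 10.98 ± 0.0139 and 11.22 ± 0.108 against 11.63 ± 0.0492 and 11.92 ± 0.0116 in the ERT2 and Cre-ERT2 libraries, respectively. mRNA level does not report whether a small edit destroyed the protein, and KO is used below for libraries labelled so. The study reports that loss of the Ikaros factors was established by western blot in its lines grown from single cells. All 10 pre-B cell markers were measured, and their summed level on the log2 scale ran from 16.69 to 16.75 in WT libraries and from 16.29 to 16.38 in KO libraries. Of other cell types, 1 of 6 T cell markers (Lck), 2 of 6 myeloid markers (Itgam and Lyz2), 0 of 5 erythroid markers and 3 of 4 plasma cell markers were in the table. The summed myeloid level was 7.57 to 7.62 in WT and 8.45 to 8.76 in KO libraries. Lck was 8.81 to 8.92 in ERT2 WT, 9.66 to 9.73 in Cre-ERT2 WT, 7.40 to 7.46 in ERT2 KO and 7.73 to 7.79 in Cre-ERT2 KO. The plasma cell sum was 12.7 to 12.95 in WT and 12.17 to 12.54 in KO. Markers within a list moved in both directions. Lyz2 was higher in KO with ERT2 and Cre-ERT2 (0.99 and 1.23), and Itgam was lower (-0.15 and -0.18). Of the pre-B cell markers, 2 were higher and 6 lower with ERT2, and 2 and 7 with Cre-ERT2. Of the plasma cell markers, 1 was higher and 2 lower in each of these comparisons. Markers also moved between Cre-ERT2 and ERT2 libraries. Of the 10 pre-B cell markers 1 was higher and 5 lower with Cre-ERT2 in each genotype, and of the plasma cell markers 1 and 1. Lck was higher by 0.81 in WT and 0.33 in KO, and Lyz2 by 0.21 in KO. Of all genes, 11.9% in WT and 12.6% in KO differed at an adjusted p under 0.05 in the limma test. The defining T cell markers Cd3e, Cd3g, Cd4, Cd8a and Trac and the myeloid markers Csf1r, Mpo, Elane and S100a8 were not among the genes measured, and the part of these shifts in the differences below was not tested.

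Promoters of 59 of the 69 members could be read from the RefSeq promoter table (GRCm38.p6), each from 250 bases before to 50 bases after the gene's start. A CHR, searched as TTTGAA or TTCGAA on both strands, was present in 29 of 47 promoters of the mitotic machinery (61.7%), in 1 of 12 promoters of the other kinesins (8.33%) and in 19.4% of all 27025 promoters of the table. A CCAAT box, searched as CCAAT on both strands, was present in 70.2% of the machinery promoters, in 33.3% of those of the other kinesins and in 37.9% of all promoters. Both elements together were found in 25 of the 47 machinery promoters (53.2%) against 7.7% of all promoters and 6.21% of the promoters of measured genes. The E2F sites TTTGGCGC and TTTCCCGC were found in 5 of the 47 machinery promoters (10.6%). Their share was 1.63% in all promoters and 3.25% in the promoters of measured genes. These matches describe the letters of the promoters and are not evidence of binding. Sequences are shown for 6 core members with both elements, in order of their largest change in any comparison. At most 6 were to be printed, so other core members may hold both elements. In at least 1 comparison of KO with WT below, Bub1 and Plk1 rose and Top2a, Bub3, Cenpa and Ccnb2 fell. Top2a rose in both comparisons of Cre-ERT2 with ERT2. The number and position of the elements differ between the 6 promoters, and their part in these changes was not tested. Each sequence is the 150 bases before the start, 5′ to 3′, and capitals mark matches to a CHR or to a CCAAT box on either strand.
Bub1, chr2:127831860-127832009, minus strand: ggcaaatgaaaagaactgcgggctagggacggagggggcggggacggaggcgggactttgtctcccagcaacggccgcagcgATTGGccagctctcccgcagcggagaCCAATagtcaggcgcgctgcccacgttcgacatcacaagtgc
Top2a, chr11:99024190-99024339, minus strand: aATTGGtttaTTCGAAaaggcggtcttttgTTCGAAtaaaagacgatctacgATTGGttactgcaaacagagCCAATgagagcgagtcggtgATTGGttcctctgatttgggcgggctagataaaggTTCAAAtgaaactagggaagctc
Bub3, chr7:131560220-131560369, plus strand: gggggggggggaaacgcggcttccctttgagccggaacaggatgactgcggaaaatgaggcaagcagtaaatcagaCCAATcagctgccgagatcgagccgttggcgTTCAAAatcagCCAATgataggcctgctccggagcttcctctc
Cenpa, chr5:30666736-30666885, plus strand: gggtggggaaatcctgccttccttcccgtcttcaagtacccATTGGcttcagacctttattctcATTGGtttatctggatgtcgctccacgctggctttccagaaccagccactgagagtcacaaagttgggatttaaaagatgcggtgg
Ccnb2, chr9:70421555-70421704, minus strand: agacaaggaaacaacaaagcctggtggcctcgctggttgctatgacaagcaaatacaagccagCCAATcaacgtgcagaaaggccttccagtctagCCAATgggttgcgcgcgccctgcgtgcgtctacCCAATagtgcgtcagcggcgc
Plk1, chr7:122159285-122159434, plus strand: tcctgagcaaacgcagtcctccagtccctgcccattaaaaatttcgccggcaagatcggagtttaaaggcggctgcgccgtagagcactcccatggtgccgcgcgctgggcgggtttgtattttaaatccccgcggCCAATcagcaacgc

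The Top2a promoter was the most densely marked of the 6, with 6 CCAAT boxes and 4 CHR matches in its whole window, of which 4 and 3 lie in the stretch shown. In the promoter of Ccnb2 the 3 CCAAT boxes lie 33 bases apart, at 87, 54 and 21 bases before the start. Bub3 has a CHR at 43 bases before the start between 2 CCAAT boxes, and Bub1 has CCAAT boxes in opposite orientation at 68 and 42 bases before the start. The CHR of Bub1, Cenpa and Plk1 and the nearer of 2 in Ccnb2 lie in the first transcribed bases, at 14, 16, 30 and 4 bases after the start, and are not in the stretches shown.

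The log2 mean of the members over all libraries ran from 3.35 for Kif19a to 15.41 for Top2a, and 60 of the 69 had a mean above 8, so that most of the set was well expressed. These levels are not scaled to gene length and are not compared between genes. The replicate spread was small, with a median SD over the members of 0.0363 in ERT2 WT, 0.0247 in Cre-ERT2 WT, 0.0272 in ERT2 KO and 0.042 in Cre-ERT2 KO. Within each library, the median deviation of the 53 machinery genes from the ERT2 WT mean lay between -0.03 (Cre-ERT2 KO replicate 1) and 0.03 (Cre-ERT2 KO replicate 3). These medians were -0.0098 to -0.0067 in ERT2 KO, below the 0.0022 to 0.013 of Cre-ERT2 WT, and both groups lay within the range of ERT2 WT (-0.0197 to 0.0258). Over the 29 core genes the medians of ERT2 KO, -0.0448 to -0.0334, lay below those of ERT2 WT (-0.0176 to 0.0279) and Cre-ERT2 WT (-0.0028 to 0.0133), and Cre-ERT2 KO ran from -0.0419 to 0.0009. Single genes differed between groups in both directions and by more than these medians. In bulk RNA, fewer cells in mitosis and less RNA per cell cannot be told apart.

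**Figure D1:**
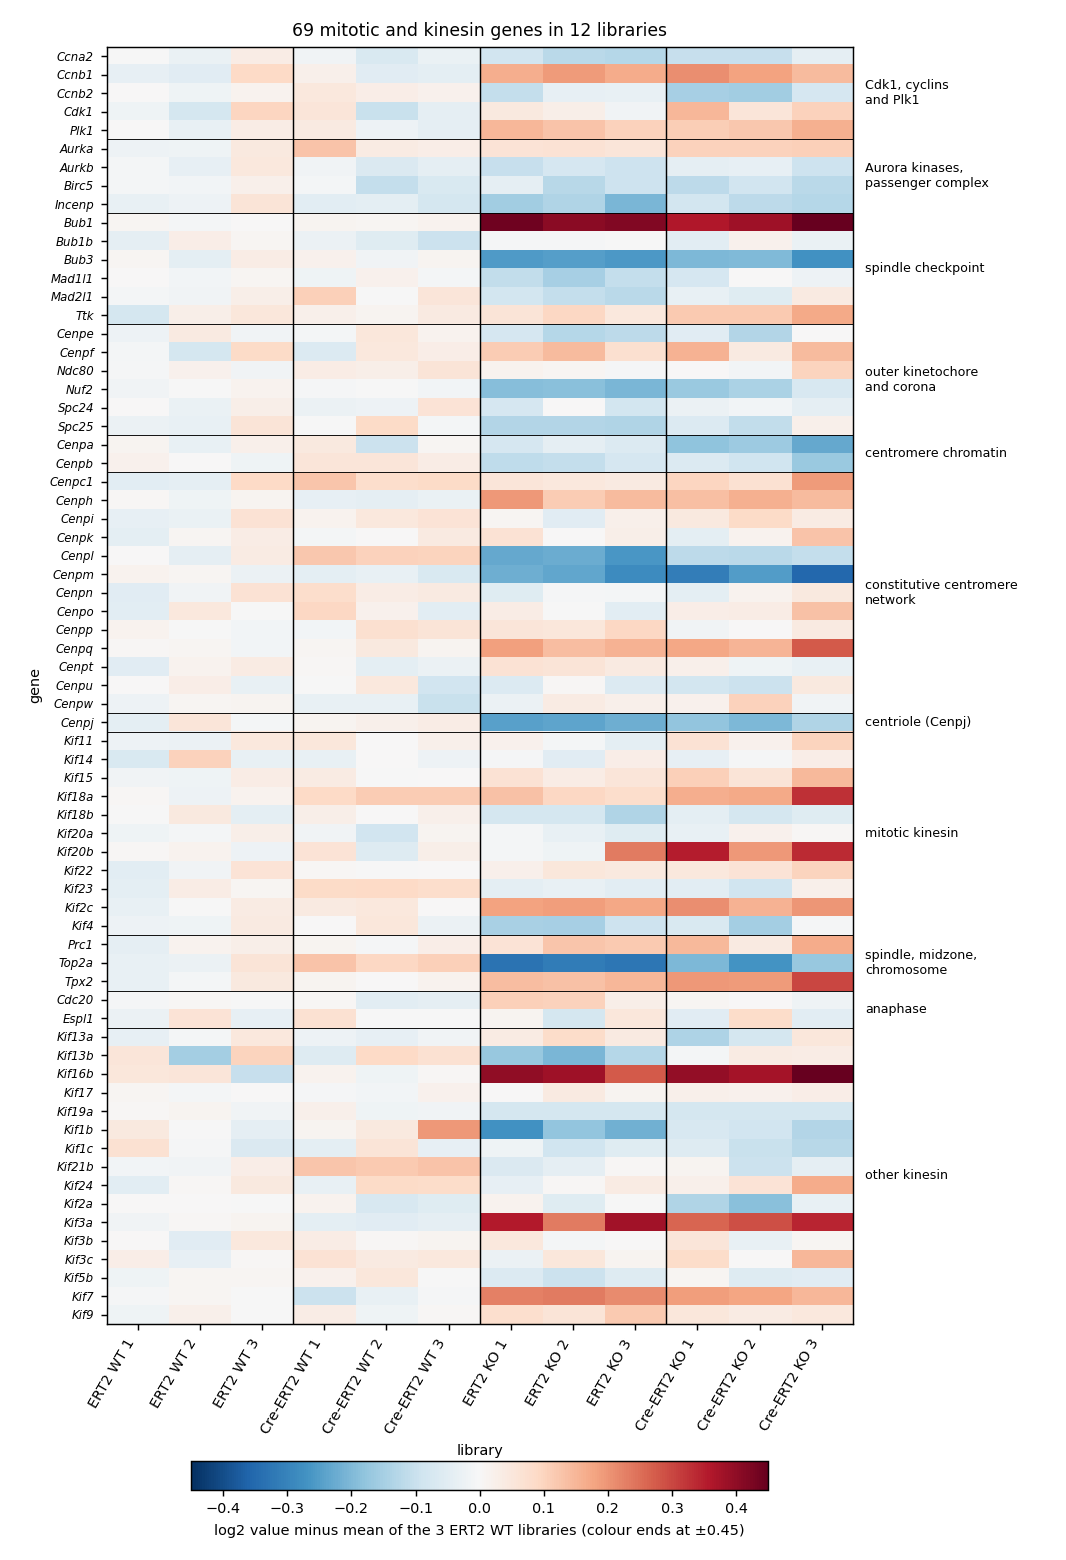
Heat map of the 69 genes (rows, grouped by role) in the 12 libraries (columns), with colour for the log2 value minus the mean of the 3 ERT2 WT libraries and a scale that ends at 0.45 in each direction. Bub1, Kif16b, Kif3a and Kif7 are red and Top2a, Bub3, Cenpl, Cenpm and Cenpj are blue in all 6 KO libraries, whereas the Cre-ERT2 WT columns stay close to white.

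The first comparison asks whether activation of β-catenin in Ikaros-proficient cells moved the mitotic set. In WT cells 3 of the 69 members were called, that is, passed an adjusted p of 0.05 in the limma test across all genes, and all of them were higher with Cre-ERT2. They were Top2a, the topoisomerase that untangles sister chromatids, Cenpl, a member of the constitutive centromere network, and Kif21b, a kinesin of the other set that regulates microtubule growth. This is 4.35% of the members, while 11.9% of all genes were called (5.93% higher and 5.95% lower). The median change was 0.01 in the members and 0.00 in all genes, and the median absolute change was 0.03 and 0.04, respectively. At an unadjusted p under 0.05 there were 8 members, compared with 24.9% of all genes.

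Top2a, at chr11:98992943-99024189 on the minus strand (GRCm38), had log2 values of 15.49, 15.49 and 15.58 in ERT2 WT and of 15.65, 15.61 and 15.62 in Cre-ERT2 WT. All Cre-ERT2 values were above all ERT2 values, and the difference of 0.11 ± 0.03 (SE) corresponds to a 1.08-fold change (limma adjusted p = 0.0237). Cenpl, at chr1:161070713-161086724 on the plus strand, was at 9.47, 9.43 and 9.51 in ERT2 WT and at 9.59, 9.57 and 9.57 in Cre-ERT2 WT, a change of 0.11 ± 0.03 with no overlap of the groups (limma adjusted p = 0.0148). Kif21b was at 11.23, 11.22 and 11.27 against 11.37, 11.36 and 11.37, a change of 0.12 ± 0.03, again with separate groups (limma adjusted p = 0.0155). With 3 against 3 libraries the exact two-sided permutation test of a single gene cannot give a p below 0.1, which is the value it gave for each of these genes.

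The genes that carry mitotic entry and the checkpoint were not called in WT cells. The changes were -0.03 for Cdk1, -0.02 for Ccnb1, 0.03 for Ccnb2, -0.04 for Ccna2 and -0.01 for Plk1. In the checkpoint they ran from -0.06 (Bub1b) to 0.05 (Mad2l1), and in the outer kinetochore from -0.01 (Nuf2) to 0.04 (Ndc80). Birc5 (survivin) and Incenp, partners of Aurkb in the chromosomal passenger complex, were at -0.06 each and were not called. Over the 29 core mitotic genes the 95% intervals of the change reached from -0.13 to 0.17, and in all 69 members the interval stayed within 0.2 log2 units of 0. Leaving out a library changed the count of called members to 1 (without ERT2 WT replicate 1, Cre-ERT2 WT replicate 1 or Cre-ERT2 WT replicate 3), 0 (without ERT2 WT replicate 2), 4 (without ERT2 WT replicate 3, which added Cenpc1) or 5 (without Cre-ERT2 KO replicate 3, which also added Kif18a and Kif23).

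The same comparison in KO cells called 5 of the 69 members (7.25%), while 12.6% of all genes were called (7.27% higher and 5.33% lower). Higher were Kif20b, a kinesin of cytokinesis, Cenpl, Top2a and Mad1l1, the kinetochore anchor of Mad2. Lower was Cenpa, the centromeric histone. The median change of the members was 0.03 against 0.00 in all genes, and 18 members stood at an unadjusted p under 0.05, as did 25.2% of all genes.

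Kif20b, at chr19:34922361-34975745 on the plus strand, had the largest change, with log2 values of 9.98, 9.97 and 10.23 in ERT2 KO and of 10.34, 10.19 and 10.33 in Cre-ERT2 KO. ERT2 KO replicate 3 lay above the lowest Cre-ERT2 KO library, so the groups overlapped, and the change was 0.23 ± 0.06 (limma adjusted p = 0.0343). It was 0.31 without ERT2 KO replicate 3, and it was not called without ERT2 KO replicate 1 (0.19), ERT2 KO replicate 2 (0.18), Cre-ERT2 KO replicate 1 (0.20) or Cre-ERT2 KO replicate 3 (0.21). Cenpa, at chr5:30666777-30674830 on the plus strand, was at 11.39, 11.43 and 11.41 in ERT2 KO and at 11.29, 11.30 and 11.23 in Cre-ERT2 KO. These groups did not overlap, and Cenpa fell by 0.13 ± 0.03 on the log2 scale (limma adjusted p = 0.0253). That call was lost without any 1 of ERT2 KO replicates 1, 2 and 3 and Cre-ERT2 KO replicates 1 and 3, with changes between -0.14 and -0.11.

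Top2a and Cenpl were called in both genotypes, in libraries that the comparisons do not share. Both tests used a spread estimated from all 12 libraries. In KO cells Top2a was at 15.19, 15.20 and 15.19 with ERT2 and at 15.31, 15.25 and 15.35 with Cre-ERT2, a change of 0.11 ± 0.03 (limma adjusted p = 0.0234). Cenpl was at 9.24, 9.25 and 9.21 with ERT2 and at 9.35, 9.35 and 9.36 with Cre-ERT2, a change of 0.12 ± 0.03 (limma adjusted p = 0.00695). For both genes the Cre-ERT2 libraries were above the ERT2 libraries without overlap, and the Cenpl call in KO was kept under each of the 22 other settings tried. Mad1l1 was at 10.13, 10.10 and 10.14 against 10.17, 10.25 and 10.22, a change of 0.09 ± 0.03 (limma adjusted p = 0.0409), and this call was lost under 16 of the 22 settings. The Top2a call in KO was lost without each of ERT2 KO replicates 1, 2 and 3 and Cre-ERT2 KO replicates 1 and 3, with values of 0.09 to 0.11. Among the 22 settings, the Top2a call was lost under 7 in WT and under 8 in KO. Quantile normalization and the fit of only the 6 libraries compared lost it in both genotypes. The Cenpl call in WT was lost under 3 of the 22 settings. The number of called members became 1 without ERT2 KO replicate 1 or 2 and 3 without ERT2 KO replicate 3. Without Cre-ERT2 KO replicate 3 it was 4, with 1 higher (Cenpl) and 3 lower (Kif13a, Kif2a and Ccnb2), so that the prevailing direction of the calls turned.

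**Figure D2:**
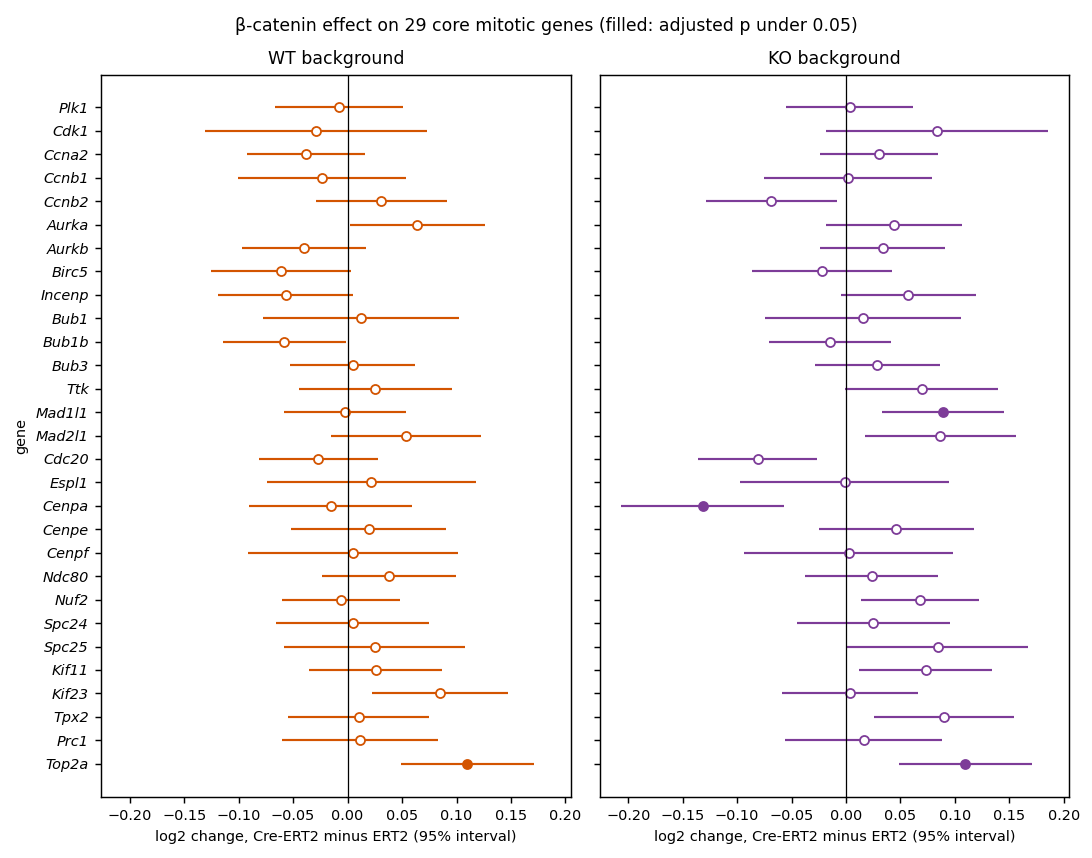
Change of 29 core mitotic genes with Cre-ERT2 (Cre-ERT2 minus ERT2, log2, horizontal axis) in WT cells (left) and KO cells (right), with the 95% interval from limma as a line and filled points for called genes. Top2a is filled at 0.11 in both panels, Mad1l1 and Cenpa are filled in KO cells alone, and the other points are open.

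Whether the β-catenin effect differed between KO and WT was tested with the interaction term. The limma test called 0 of the 69 members at an adjusted p of 0.05, while 4.53% of all genes were called (2.71% higher and 1.82% lower). At an unadjusted p under 0.05 there were 7 members, compared with 17.3% of all genes. They were Kif21b, Incenp, Ccnb2, Mad1l1, Kif20b, Cenpa and Cenpp, with the smallest limma adjusted p at 0.109 for Kif21b. The change of Kif21b was 0.12 in WT and -0.01 in KO, a difference of -0.13, and that of Kif20b was 0.01 in WT and 0.23 in KO, a difference of 0.22 with a 95% interval from 0.02 to 0.41. Without ERT2 KO replicate 3 Kif20b was called, and without Cre-ERT2 KO replicate 1 Kif21b was called, so the count was 1 in each of these settings.

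The KO libraries differed from WT libraries in many members and in both directions. In ERT2 libraries 36 of the 69 members were called (52.2%), 15 higher and 21 lower in KO, while 59.0% of all genes were called (29.8% higher and 29.3% lower). With Cre-ERT2, the count was 32 (46.4%), of which 18 were higher and 14 lower, beside 58.9% of all genes (30.4% higher and 28.6% lower). The median absolute change was 0.08 in the members in both comparisons, beside 0.10 and 0.11 in all genes, and 0 members reached 0.5 log2 units, which 7.37% and 7.47% of all genes did. In both comparisons 22 members were called in the same direction, 12 higher and 10 lower, and 0 in opposite directions. These were 61.1% of the members called in ERT2 libraries and 68.8% of those called in Cre-ERT2 libraries. The share of all genes called in the same direction in both comparisons was not computed. No background therefore stands beside these counts or beside the counts in both comparisons given below.

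The split between higher and lower calls depended on the scaling and on single libraries. With each library centred on its median, which shifted the median of all genes by -0.03, the calls were 11 higher and 24 lower in ERT2 libraries and 11 higher and 25 lower in Cre-ERT2 libraries. With quantile normalization they were 17 higher and 14 lower and 19 higher and 14 lower, respectively. Without Cre-ERT2 KO replicate 3 the Cre-ERT2 comparison turned to 14 higher and 21 lower, and without ERT2 WT replicate 3 the ERT2 comparison turned to 18 higher and 17 lower. In ERT2 libraries 10 members had a change of at least 0.2 log2 units and 4 of at least 0.3, namely Bub1, Kif16b, Kif3a and Top2a.

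**Figure D3:**
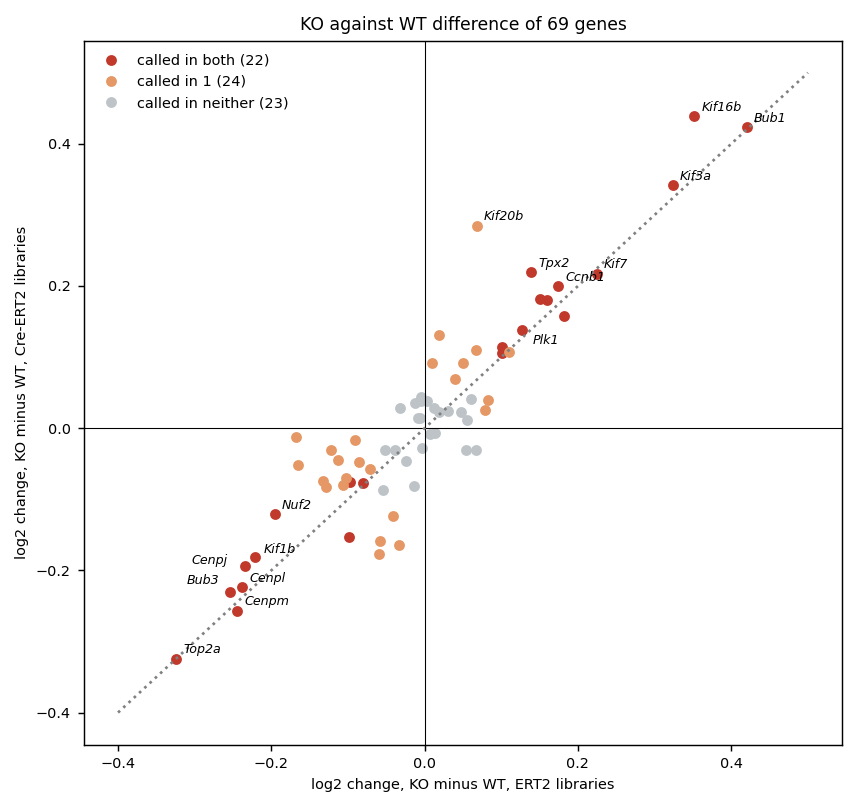
KO minus WT log2 change of the 69 genes in ERT2 libraries (horizontal) and in Cre-ERT2 libraries (vertical), coloured by whether the gene was called in both (22), 1 (24) or neither (23), with a dotted line where both changes are equal. Bub1, Kif16b and Kif3a stand at the upper right and Top2a at the lower left, and Kif20b lies above the line with 0.07 in ERT2 and 0.29 in Cre-ERT2 libraries.

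Within the spindle checkpoint, the partners Bub1 and Bub3 moved in opposite directions. Bub1, the kinase that marks centromeric histone H2A and recruits the other checkpoint proteins, lies at chr2:127801122-127831865 on the minus strand. It was at 11.63, 11.61 and 11.62 in ERT2 WT, 11.63, 11.63 and 11.63 in Cre-ERT2 WT, 12.05, 12.02 and 12.03 in ERT2 KO and 11.98, 12.00 and 12.18 in Cre-ERT2 KO. All 6 KO libraries were above all 6 WT libraries, by 0.42 ± 0.04 in each vector background or 1.34-fold (limma adjusted p = 1.97e-06 and 1.79e-06). Without Cre-ERT2 KO replicate 3, the highest library, the difference in Cre-ERT2 libraries was 0.36.

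Bub3, the WD40 protein that carries Bub1 and Bub1b to kinetochores, lies at chr7:131560222-131571895 on the plus strand. It was at 12.12, 12.06 and 12.14 in ERT2 WT, 12.13, 12.09 and 12.12 in Cre-ERT2 WT, 11.85, 11.86 and 11.85 in ERT2 KO and 11.91, 11.91 and 11.83 in Cre-ERT2 KO. Every KO library was below every WT library, and Bub3 fell by 0.25 ± 0.03 and 0.23 ± 0.03 on the log2 scale (limma adjusted p = 3.24e-06 and 7.80e-06). The other checkpoint genes differed less. Mad1l1 and Mad2l1 were lower in KO in ERT2 libraries (-0.12 and -0.10) and were not called in Cre-ERT2 libraries (-0.03 and -0.07). Ttk (Mps1) was higher in Cre-ERT2 libraries (0.11) and not called in ERT2 libraries (0.07), and Bub1b (BubR1) was called in neither.

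**Figure D4:**
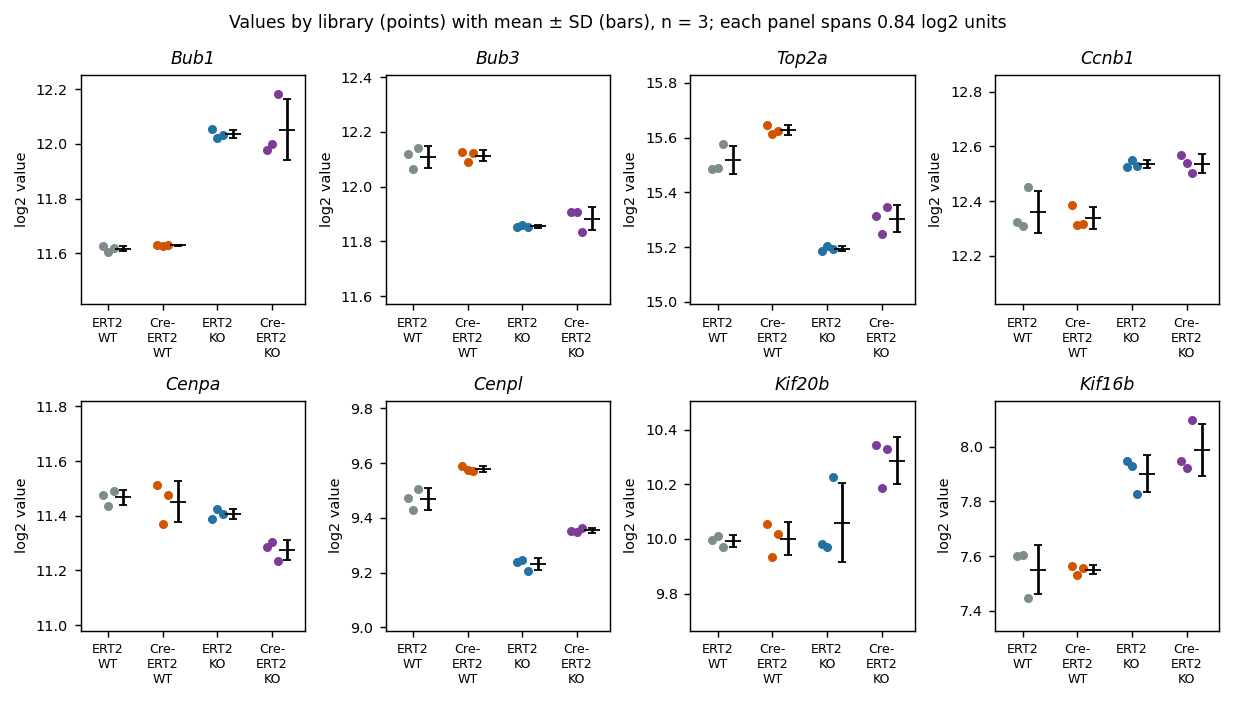
Log2 values of 8 members in each of the 12 libraries (points) with mean and SD beside them (bars, n = 3), 1 panel per gene, each panel spanning the same 0.84 log2 units. Bub1, Ccnb1 and Kif16b are higher in all KO libraries than in all WT libraries, Bub3, Top2a and Cenpl are lower, and Kif20b is scattered in ERT2 KO by replicate 3.

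Among the drivers of mitotic entry, cyclin B1 and Plk1 rose while cyclins A2 and B2 fell or were not called. Ccnb1 was at 12.32, 12.31 and 12.45 in ERT2 WT, 12.39, 12.31 and 12.32 in Cre-ERT2 WT, 12.53, 12.55 and 12.53 in ERT2 KO and 12.57, 12.54 and 12.50 in Cre-ERT2 KO. The lowest KO library was above the highest WT library, and the change was 0.17 ± 0.04 and 0.20 ± 0.04 (limma adjusted p = 0.000988 and 0.000347). Plk1 was higher by 0.13 and 0.14. Ccnb2 was lower in Cre-ERT2 libraries (-0.16) and not called in ERT2 libraries (-0.06). Ccna2 was lower in ERT2 libraries (-0.11) and not called in Cre-ERT2 libraries (-0.04), and its exons overlap those of Exosc9 on the opposite strand. Cdk1 was higher in Cre-ERT2 libraries (0.13) and not called in ERT2 libraries (0.02). Of the chromosomal passenger complex, Incenp (-0.17), Aurkb (-0.09) and Birc5 (-0.09) were lower in KO in ERT2 libraries, and none of these genes was called in Cre-ERT2 libraries (-0.05, -0.02 and -0.05). Aurka, the kinase of spindle poles, was called in neither comparison, and its activator Tpx2 was higher in both (0.14 and 0.22).

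Top2a had the largest fall of the set. Its KO libraries, at 15.19 to 15.20 with ERT2 and 15.25 to 15.35 with Cre-ERT2, all lay below the WT libraries at 15.49 to 15.58 and 15.61 to 15.65. Top2a fell by 0.32 ± 0.03 on the log2 scale in both comparisons (limma adjusted p = 6.19e-07 and 5.84e-07), a ratio of 0.80. The KO level with Cre-ERT2 lay below the WT level with ERT2 in every library. Prc1, which bundles midzone microtubules, was higher by 0.10 and 0.11, and its exons overlap those of Rccd1 on the opposite strand. Cdc20 was higher in ERT2 libraries (0.08) and not called in Cre-ERT2 libraries (0.02), and Espl1 was called in neither. Exons of Cdc20 overlap those of Elovl1 on the opposite strand.

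In the outer kinetochore, Nuf2 was lower in both comparisons (-0.20 and -0.12), whereas its partner Ndc80 and the subunit Spc24 were called in neither. Spc25 (-0.13) and Cenpe (-0.11), a kinesin that carries chromosomes to the spindle equator, were lower in ERT2 libraries and not called in Cre-ERT2 libraries (-0.07 and -0.08). Cenpf was higher in ERT2 libraries by 0.11, with overlapping groups, and at 0.11 it was not called in Cre-ERT2 libraries. In the constitutive centromere network 2 of 13 genes were higher and 2 were lower in both comparisons. Cenpm, a subunit of the CENP-H/I/K/M group, was at 8.93, 8.92 and 8.89 in ERT2 WT, 8.87, 8.88 and 8.85 in Cre-ERT2 WT, 8.69, 8.68 and 8.63 in ERT2 KO and 8.60, 8.66 and 8.56 in Cre-ERT2 KO, and fell by 0.24 ± 0.03 and 0.26 ± 0.03 (limma adjusted p = 1.98e-05 and 1.23e-05). Cenpl fell by 0.24 and 0.22. In the opposite direction, Cenph of the same group as Cenpm was higher by 0.15 and 0.18 and Cenpq by 0.16 and 0.18. Exons of Cenpq overlap those of Mut on the opposite strand.

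Of the proteins on centromeric DNA, Cenpb, which binds a motif of satellite repeats, was lower in both comparisons (-0.10 and -0.15), and its exons overlap those of Spef1 on the same strand. Cenpa was lower in Cre-ERT2 libraries (-0.18) and not called in ERT2 libraries (-0.06). Cenpj, which bears a centromere symbol but builds centrioles, fell by 0.23 and 0.19, with KO libraries at 8.95 to 9.06 and WT libraries at 9.15 to 9.25.

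Among the 11 mitotic kinesins, 2 were higher and 1 was lower in both comparisons. Kif2c (MCAK), which takes microtubule ends apart to correct wrong attachments, was higher by 0.18 and 0.16, and its KO libraries (11.23 to 11.28) did not overlap its WT libraries (11.03 to 11.12). Kif18a, which limits chromosome oscillation, was higher by 0.10 and 0.11, and its exons overlap those of Mettl15 on the opposite strand. Kif18b was lower by 0.10 and 0.08. Kif20b was higher in Cre-ERT2 libraries (0.29 ± 0.06, limma adjusted p = 0.00174) and not called in ERT2 libraries (0.07). Kif23 (MKLP1), the motor of the cytokinetic midzone, was lower in Cre-ERT2 libraries (-0.12), and Kif4, the chromokinesin, was lower in ERT2 libraries (-0.13), where its exons overlap those of Pdzd11 on the opposite strand. Kif15 and Kif22 were higher in Cre-ERT2 libraries by 0.09 and 0.07. Kif11 (Eg5), which drives spindle bipolarity, Kif14 and Kif20a were called in neither.

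Apart from Bub1, the largest rises in both comparisons were those of Kif16b and Kif3a, kinesins outside that list of mitotic kinesins. Kif16b, a motor of early endosomes at chr2:142617474-142901531 on the minus strand, was at 7.60, 7.60 and 7.45 in ERT2 WT, 7.56, 7.53 and 7.55 in Cre-ERT2 WT, 7.95, 7.93 and 7.83 in ERT2 KO and 7.95, 7.92 and 8.10 in Cre-ERT2 KO. Its KO libraries were above all WT libraries by 0.35 ± 0.05 and 0.44 ± 0.05 (limma adjusted p = 9.78e-05 and 1.40e-05). Kif3a, a subunit of the kinesin-II motor of cilia and vesicle transport at chr11:53567379-53601967 on the plus strand, was at 9.32, 9.34 and 9.35 in ERT2 WT, 9.30, 9.29 and 9.30 in Cre-ERT2 WT, 9.70, 9.57 and 9.72 in ERT2 KO and 9.60, 9.63 and 9.68 in Cre-ERT2 KO. The difference was 0.32 ± 0.04 and 0.34 ± 0.04 without overlap of the groups (limma adjusted p = 5.96e-06 and 3.47e-06), whereas its partner subunit Kif3b was called in neither. Kif7, a regulator of Hedgehog signaling, was higher by 0.22 in each comparison, and its exons overlap those of Ticrr on the opposite strand. Kif1b fell by 0.22 and 0.18. Kif19a was called lower by 0.08 in each, at a log2 mean of 3.35, the lowest of the members. Its KO values ran from 3.315 to 3.3152 and its WT values from 3.3766 to 3.42. The call thus rests on nearly constant values at a very low level, where a compressed scale may also understate a change. Kif21b was lower in Cre-ERT2 libraries (-0.16) and not called in ERT2 libraries (-0.03). Kif13b was lower in ERT2 libraries (-0.17), with overlapping groups, and not called in Cre-ERT2 libraries (-0.01).

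Promoters with and without both elements held calls in both directions. Of the 25 machinery genes with a CHR and a CCAAT box, 5 were higher and 7 lower in KO in ERT2 libraries, and 7 higher and 8 lower in Cre-ERT2 libraries, beside 59.0% and 58.9% of all genes called. Of the 22 without both, 5 were higher and 7 lower in ERT2 libraries and 7 higher and 3 lower in Cre-ERT2 libraries. With β-catenin activation 2 of the 25 were higher in WT, and 2 were higher and 1 lower in KO, beside 11.9% and 12.6% of all genes called. The median change of the 25 genes was -0.01 and 0.01 in the KO comparisons.

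Genes that surround the set were taken from lists written by hand. Of 72 further mitotic genes in the table, 21 were higher and 21 lower in KO with ERT2, 19 and 19 with Cre-ERT2, and 17 and 18 in both comparisons. Of all genes, 59.0% were called with ERT2 and 58.9% with Cre-ERT2, so the counts of the single comparisons were close to the background. For the counts in both comparisons no such share was computed. Anln (anillin), a scaffold of the cytokinetic ring, was higher by 0.38 and 0.42, and Cdc25b, a phosphatase that activates Cdk1, fell by 0.52 and 0.71. With β-catenin activation Cdc25b rose by 0.28 in WT and by 0.09 in KO, and it was the only gene of this list called in the interaction (-0.18, limma adjusted p = 0.0226). In the list as a whole 1 gene was higher and 2 lower in WT, and 6 higher and 2 lower in KO, with β-catenin activation. Of all genes, 11.9% were called in WT and 12.6% in KO. Of the 14 anaphase-promoting complex genes, 5 were higher and 3 lower in KO in ERT2 libraries and 7 and 4 in Cre-ERT2 libraries, with Cdc16 higher by 0.40 in each and Anapc11 lower (-0.41 and -0.35). Of the centromere network genes that the table lists under older symbols and the symbol rule misses, Apitd1 (CENP-S) was lower (-0.40 and -0.41), Itgb3bp (CENP-R) was lower (-0.23 and -0.17) and Stra13 (CENP-X) was called in neither. Gsg2 (haspin), the kinase that marks centromeric histone H3, was lower (-0.32 and -0.28). The genes named here were chosen after their values were seen.

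Among regulators of mitotic transcription more genes were lower than higher in KO. Of 16 genes, 2 were higher and 11 lower with ERT2, 3 and 10 with Cre-ERT2, and 2 and 10 in both comparisons. Of all genes, 29.3% and 28.6% were lower and 29.8% and 30.4% higher, and the list, written by hand, was not tested as a set. All 3 NF-Y subunits were lower, Nfya (-0.26 and -0.23), Nfyb (-0.13 and -0.22) and Nfyc (-0.30 and -0.27). Of the MuvB core, Lin9 (-0.18 and -0.13), Lin37 (-0.16 and -0.11) and Lin52 (-0.11 and -0.20) were lower and Lin54 was called in neither. Foxm1, an activator of late cell cycle genes, was lower (-0.07 and -0.16), and Mybl2 (B-Myb), its counterpart on MuvB, was higher (0.26 and 0.22). Cdkn1a (p21), an inhibitor of cyclin-dependent kinases, fell by 0.64 and 0.66, and Cdkn1b (p27) was higher by 0.18 and 0.21. E2f8, a repressor E2F, fell by 0.28 and 0.36 in KO and rose with β-catenin activation by 0.25 in WT and 0.18 in KO, where Cdkn1a fell by 0.15 and 0.17. Rbl1 was lower (-0.18 and -0.07), E2f7 was lower in ERT2 libraries (-0.13), and E2f4 was higher in Cre-ERT2 libraries (0.11). With β-catenin activation E2f4 was lower in WT (-0.12), and Rbl1 (0.19) and E2f7 (0.12) were higher in KO.

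The S phase genes were also divided, with 8 of 40 higher and 20 lower in KO with ERT2 and 10 and 22 with Cre-ERT2. In both comparisons 7 were higher and 18 lower. The median change was -0.07 in each KO comparison. Of all genes, 29.3% and 28.6% were lower and 29.8% and 30.4% higher. With β-catenin activation 0 were higher and 3 lower in WT, and 1 was higher and 6 lower in KO, beside 11.9% and 12.6% of all genes called. The KO differences of Bub1, Bub3, Top2a, Cenpl, Cenpm, Cenpj, Kif3a and Kif16b were kept under each alternative that could be fitted.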

How the data were processed

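According to the study's methods, the authors quantified reads with Salmon 1.4.0, aligned them with STAR 2.7.6 and analysed them with DESeq2 1.30.1, using mm10 and GENCODE vM24. The deposited table holds 1 normalized log2 value per gene and library, and the authors' transformation, gene filter and strand setting are not given in the sources used here. A transformation that compresses low values would understate changes and spreads of weakly expressed genes. Without counts, the depth of the libraries is unknown. The intervals rest on the spread between libraries, and counting error enters them only through that spread. Library input was 280 ng of RNA, amplified over 10 PCR cycles.

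Members were taken by symbol. Members, lists and motifs were chosen with earlier results of these data known. A limma 3.58.1 model (R 4.3.3) with 4 group means and a mean-dependent prior was fitted to all 12151 genes and 12 libraries, P values were adjusted by the Benjamini-Hochberg method, and genes were called at 0.05. The test was checked on simulated data. Intervals are 95% intervals of the fit. The rule for naming genes covered 29 core mitotic genes, the 5 largest rises and falls among called members, called regulators, and up to 4 examples per role. Further members, some uncalled genes and genes of the hand-written lists were named beyond that rule. Gene positions and exon overlaps come from GENCODE vM21 (GRCm38). Overlaps are named for called members with a protein-coding gene among the measured genes. Overlapping genes on opposite strands cannot be separated without strand. The replicate numbers did not pair the libraries.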

Additional observations from a re-analysis of the deposited data

How the results depend on the processing

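The 69 genes were refitted under 22 alternatives, which were median centring, quantile normalization, pseudocounts of 1 and 64 on unlogged values, a mean above 8, other priors, a threshold of 0.01, only the 6 libraries compared, the replicate block and each library left out. The 28 results for single members were every called β-catenin effect and the 5 largest rises and 5 largest falls of each KO comparison. Of these, 21 kept their call and direction in every alternative that could be fitted, 7 lost it in at least 1 and 0 reversed. All 7 were β-catenin effects, and every KO difference among the 28 was kept. The KO results were picked by size, so their robustness cannot be compared with that of the β-catenin effects. Other KO calls were lost, with 25 of 32 kept in Cre-ERT2 libraries under median centring and 28 of 36 in ERT2 libraries under quantile normalization. The replicate block gave 3, 5, 35, 32 and 0 called members for β-catenin in WT, β-catenin in KO, KO in ERT2, KO in Cre-ERT2 and the interaction. Same-numbered libraries correlated at -0.0908 to 0.313, and 13 of 36 best matches shared a number, so the numbers were not treated as pairs. Median centring moved the median KO change to -0.0366 in ERT2 and -0.041 in Cre-ERT2 libraries. At a threshold of 0.01 the β-catenin calls were 0 in WT and 1 in KO, and with only the 6 libraries compared 3 in KO. With 1 library left out, called members ranged from 0 to 5 for β-catenin in WT, from 1 to 5 in KO, from 29 to 38 and from 30 to 35 for KO in ERT2 and Cre-ERT2 libraries, and from 0 to 1 for the interaction. Median changes ranged from -0.0218 to 0.0003 and from -0.0075 to 0.0124 for KO in ERT2 and Cre-ERT2 libraries, turning positive in the latter without Cre-ERT2 KO replicate 1 (0.0068) or 2 (0.0124), and from 0.0036 to 0.0265 for the interaction. The causes were not tested.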
